A study of Mus musculus with 6 samples.

Results

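The mammalian Hox genes are 39 homeobox genes in 4 clusters, HoxA to HoxD, and 36 of them were measured here among 22180 genes on 6 arrays of sorted bone marrow cells. The cells were megakaryocyte-erythroid progenitors (MEP), which give rise to platelet-forming megakaryocytes and to red cells. Members were the array rows whose only gene symbol was a Hox name from 1 to 13, with the probe set of highest mean taken where a gene had more than 1 (37 probe sets for 36 genes). The other 3 genes were not analysed here, and 7 probe sets that named a Hox gene beside another gene were left out. The rule uses names and mean signal, but the Hox genes were taken up with earlier results of these data known.

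The groups were 3 arrays of T-bet knockout mice, then 3 of wild-type mice, all C57BL/6 per the labels, with MEP sorted by flow cytometry from fresh marrow after antibody staining. T-bet is the transcription factor encoded by Tbx21. Not given in the sources used here were the knockout allele, the antibodies of the sort, and the age and sex of the mice. The comparison asks which transcripts differ in these progenitors when T-bet is missing.

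Hox proteins bind DNA through a homeodomain, mostly together with Pbx and Meis partner proteins. Genes of a cluster lie in the order of their paralog numbers, and genes of the same number in different clusters descend from a common ancestral gene. In the embryo low numbers are used towards the head and high numbers towards the tail and limb tips. In blood, members of HoxA and HoxB are known from stem and multipotent cells and are turned down as cells mature, and histone methylation by Kmt2a (MLL) maintains them while Polycomb complexes repress them.

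Values are the authors' log2 signals, and differences are T-bet knockout minus wild-type on that scale, with arrays listed by replicate number 1 to 3. Erythroid genes were bright: Gata1, the master regulator of both MEP lineages, read 10.97 ± 0.030 over knockout arrays and 10.96 ± 0.047 over wild-type arrays (SD, n = 3 each), and the erythroid factor gene Klf1 read 10.72 ± 0.038 over knockout arrays and 10.60 ± 0.11 over wild-type arrays. Kit, the stem cell factor receptor that marks such progenitors, read 12.01 ± 0.019 over knockout arrays and 12.01 ± 0.060 over wild-type arrays. Among marker genes of other cells, the B cell receptor gene Cd79a lay between 6.93 and 7.79 over knockout arrays and between 6.36 and 7.01 over wild-type arrays. Whether it was above background is unknown, because detection calls were not used. Tbx21 itself read 6.41, 6.60 and 6.46 on the knockout arrays, against 6.54, 6.62 and 6.60 on the wild-type arrays, so it gave no check of the genotype labels. Xist, the RNA of the inactive X chromosome, and the Y-linked gene Eif2s3y were both above 8 in knockout replicates 1 and 2 and wild-type replicate 1. The labels call each array a biological replicate and do not say whether marrow of several mice was pooled. Knockout replicate 3 and wild-type replicate 3 had only Y-linked signal, while wild-type replicate 2 had only Xist. Counts are therefore also given with this sex-linked class as a block and without the 3 mixed arrays. P-values measure the spread between these 6 arrays.

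No Hox gene passed limma's adjusted p of 0.05, and neither did any of the 41345 probe sets (0%). Before adjustment, at p under 0.05, there were 4 of 36 Hox genes, Hoxa2, Hoxc13 and Hoxb5 with lower and Hoxa10 with higher signal in the knockout, which is 11.1% against 3.13% of all genes (1.7% lower and 1.44% higher). The count was 0 with the sex-linked class as a block and 0 without the 3 mixed arrays. Leaving out 1 array gave 1 to 4: 1 for knockout replicate 2, 2 for knockout replicate 3, 1 for wild-type replicate 2 and 1 for wild-type replicate 3. Without wild-type replicate 1 it was 4, with Hoxd8 (limma unadjusted p = 0.0468) in place of Hoxb5 (0.0965). Over all 16 alternatives the count ran from 0 to 5. The knockout and wild-type values did not overlap for 6 Hox genes (16.7%, against 8.7% of all genes), 4 lower and 2 higher in the knockout, where 5.18% and 3.52% of all genes were. Beside the 4 genes above these were Hoxb13, at -0.13, and Hoxd9, at 0.078. Without knockout replicate 1 there were 12, but groups of fewer arrays overlap less. The share of all genes was not counted with arrays left out, so 12 is not to be read against 8.7%. Without the 3 mixed arrays 1 knockout array meets 2 wild-type arrays, so overlap says little and is not counted here. In sorted cells measured in bulk, fewer cells of a type and less RNA per cell cannot be told apart.

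Most differences were small and most were negative. Of the 36 genes 26 lay below 0 (72.2%, against 51.8% of all genes), with a median of -0.045 against -0.00447 over all genes. Below 0 were 22 with the sex-linked class as a block and 23 without the 3 mixed arrays. These genes were read on the same arrays, so the counts are not counts of replicates. By array, the 36 genes deviated from their own means by 0.017, -0.076 and -0.016 on average on the knockout arrays. On the wild-type arrays they deviated by -0.012, 0.028 and 0.059, so the genotypes overlapped. The 95% interval stayed inside 1.5-fold for 33 of the 36 genes (91.7%, against 85.9% of all genes). For all 36 it stayed inside 2-fold (98% of all genes). The 3 genes whose interval reached beyond 1.5-fold were Hoxb2, Hoxc6 and Hoxd8. With the sex-linked class as a block 27 of 36 stayed within 1.5-fold, and without the 3 mixed arrays 23 did. Dim signals can compress a difference in RNA, and 13 of the 36 Hox probe sets lay in the lowest 30% of all probe sets.

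**Figure D1:**
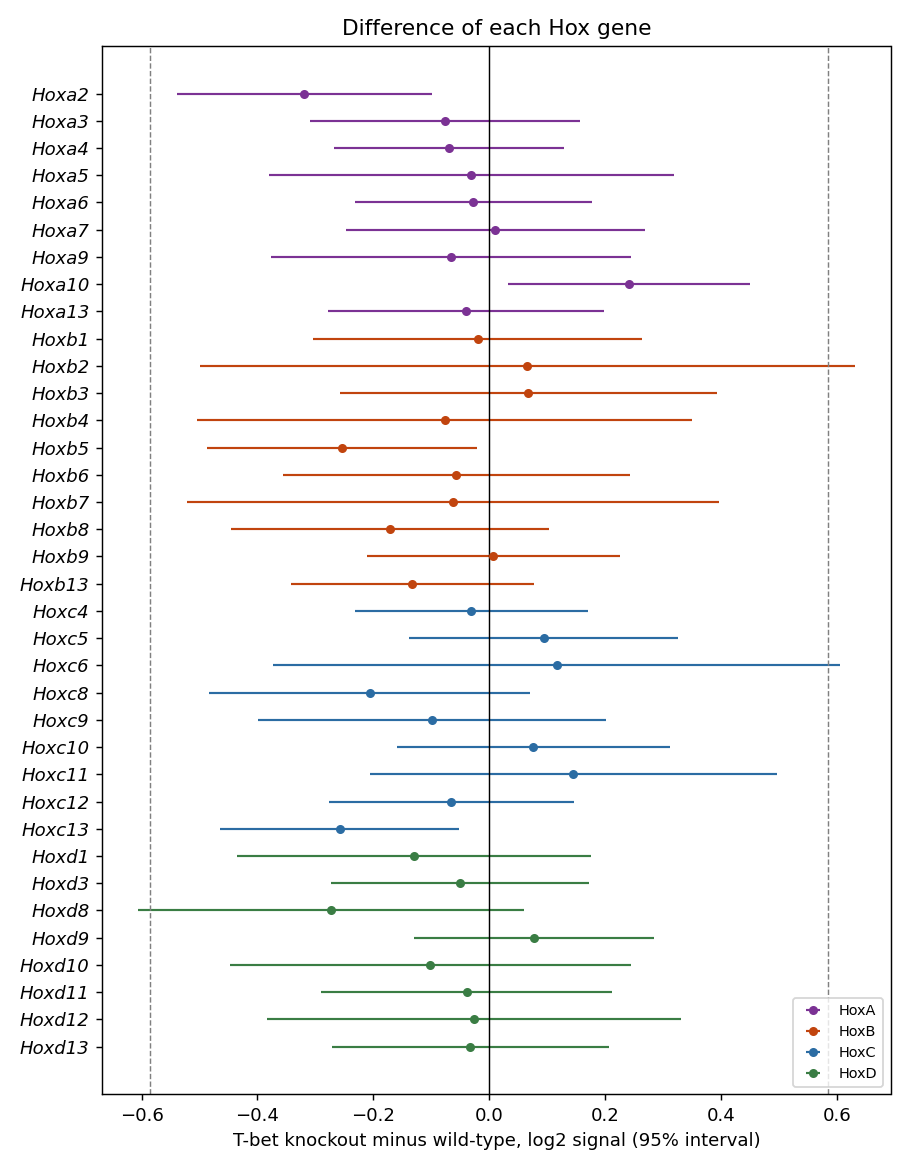
Difference in log2 signal of each Hox gene, T-bet knockout minus wild-type, with limma's 95% interval, ordered by cluster and paralog number. Dashed lines mark 1.5-fold; the intervals of Hoxa2, Hoxa10, Hoxb5 and Hoxc13 lie to 1 side of 0, and 3 of the 36 intervals cross a dashed line.

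Signals of different probe sets depend on their probes, so no Hox gene is ranked against another by level. Each can be placed among all probe sets of the same arrays. Only 5 Hox genes (13.9%) lay above the median of 6.47, where 52.2% of all genes did. They were Hoxa4, Hoxa6, Hoxa7 and Hoxa9 in HoxA and Hoxd8 in HoxD, and no HoxB or HoxC gene did. On single arrays between 5 and 6 Hox genes exceeded that array's own median and between 10 and 14 lay in its lowest 30%. Detection calls were not used here, so which Hox transcripts were above background is unknown.

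**Figure D2:**
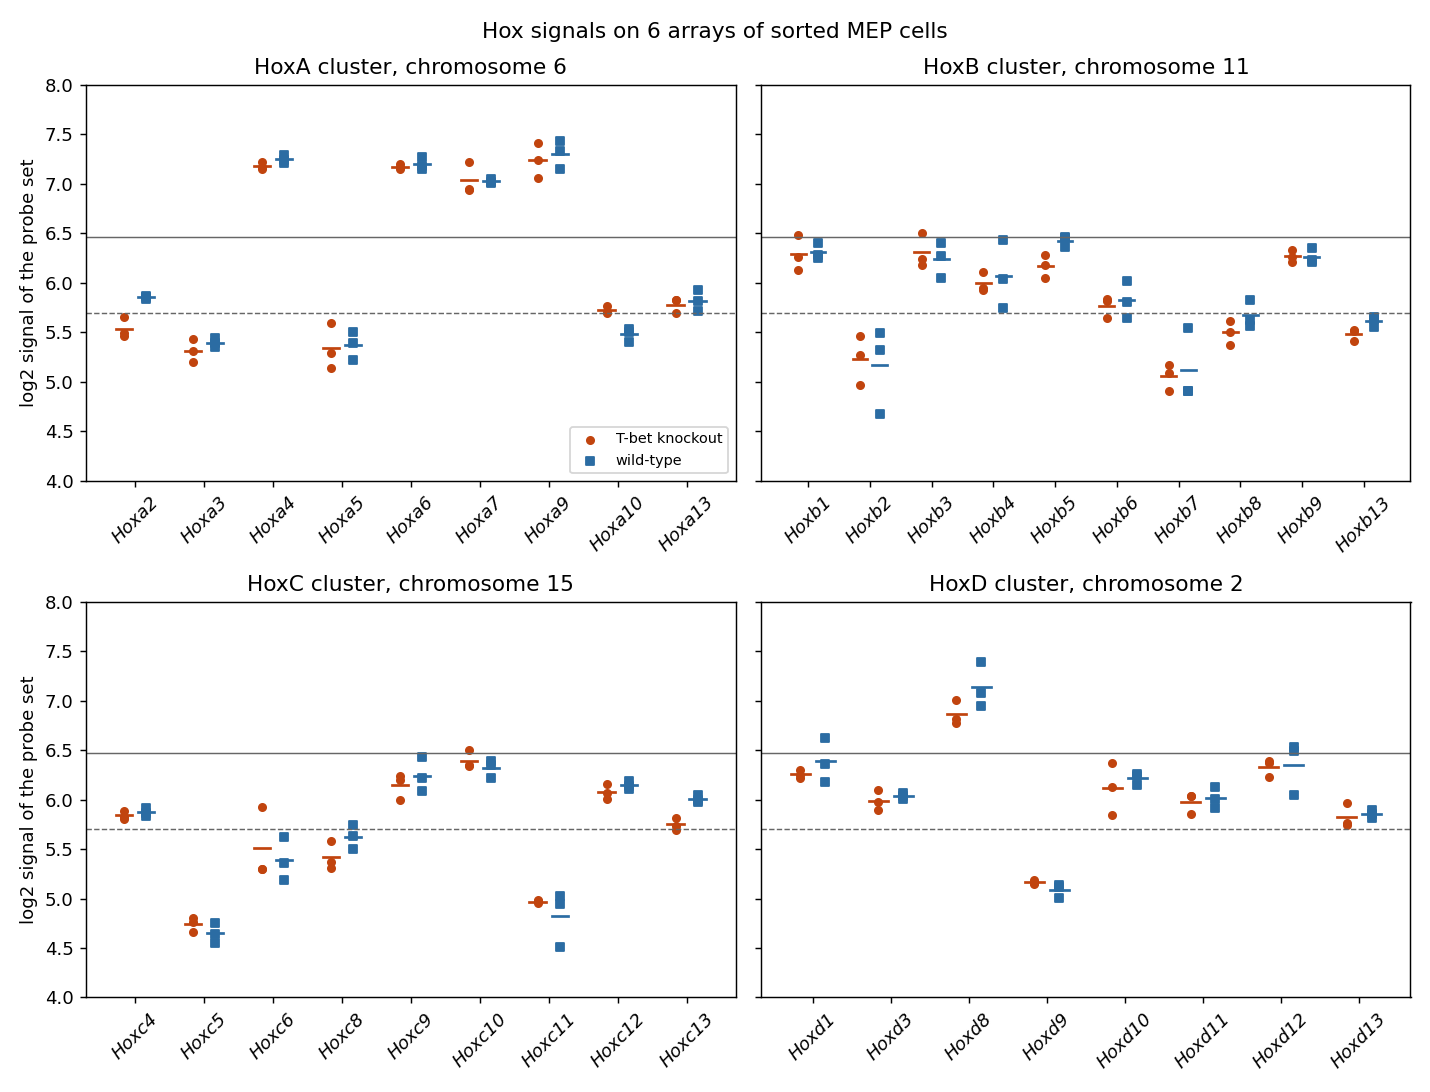
Log2 signal of the 36 Hox genes on each array, with T-bet knockout arrays as circles and wild-type arrays as squares, and the mean of 3 arrays as a bar. The solid line is the median of all probe sets and the dashed line the 30% mark; Hoxa4, Hoxa6, Hoxa7, Hoxa9 and Hoxd8 have means above the solid line.

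The HoxA cluster on chromosome 6 held both the gene of smallest p among lower signals and the one among higher signals. Hoxa2, which patterns the hindbrain and second branchial arch, read 5.65, 5.49 and 5.47 on the knockout arrays, against 5.84, 5.87 and 5.86 on the wild-type arrays. All 3 knockout arrays lay below all 3 wild-type arrays, and the wild-type arrays lay within 0.028 of each other. The difference was -0.32 (SE 0.092, 95% limits of -0.54 to -0.098), with limma unadjusted p = 0.0115, an adjusted p of 1 and an exact permutation p of 0.1, the smallest that 3 against 3 arrays allow. Hoxa10, which is known to drive megakaryocyte progenitor growth when forced on in mouse marrow, read 5.70, 5.76 and 5.70 on the knockout arrays, against 5.53, 5.504 and 5.40 on the wild-type arrays. Its groups stood apart in the other direction, by 0.24 (SE 0.087, 95% limits of 0.033 to 0.45), with limma unadjusted p = 0.029 and an adjusted p of 1. By their means over the 6 arrays both probe sets were in the dim 30%. With the sex-linked class as a block Hoxa2 differed by -0.32 (limma unadjusted p = 0.0502) and Hoxa10 by 0.24 (limma unadjusted p = 0.0905). Without the mixed arrays the differences were -0.40 for Hoxa2 and 0.25 for Hoxa10.

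The promoters of these genes are shown, as RefSeq bases of GRCm38.p6, since Hoxa2 and Hoxa10 separated by genotype in opposite directions within 1 cluster, and that of Hoxa9, whose values overlapped, is shown with them. Each is the 250 bases before an annotated start, read 5′ to 3′ on the gene's strand. Hoxa10 has 2 annotated starts. Capitals mark matches to the Meis letters TGACAG or the Hox-Pbx letters TGATNNAT on either strand.
Hoxa2 (chr6:52164832-52165081, - strand): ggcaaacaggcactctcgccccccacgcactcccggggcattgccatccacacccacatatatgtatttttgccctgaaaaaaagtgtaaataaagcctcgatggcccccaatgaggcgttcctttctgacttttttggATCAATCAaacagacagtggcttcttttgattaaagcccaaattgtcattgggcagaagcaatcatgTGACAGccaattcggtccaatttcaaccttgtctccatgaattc
Hoxa10 (chr6:52234940-52235189, - strand): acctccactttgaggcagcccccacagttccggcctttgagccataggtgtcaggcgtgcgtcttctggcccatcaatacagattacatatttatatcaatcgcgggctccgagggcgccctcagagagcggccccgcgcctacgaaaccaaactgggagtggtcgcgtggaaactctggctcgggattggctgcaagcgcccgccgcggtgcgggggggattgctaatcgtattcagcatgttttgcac
Hoxa10 (chr6:52240855-52241104, - strand): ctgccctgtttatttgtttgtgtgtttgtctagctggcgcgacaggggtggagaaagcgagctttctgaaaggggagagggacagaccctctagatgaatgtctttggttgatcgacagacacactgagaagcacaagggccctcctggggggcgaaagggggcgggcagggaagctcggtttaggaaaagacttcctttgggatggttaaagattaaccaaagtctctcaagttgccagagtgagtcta
Hoxa9 (chr6:52227371-52227620, - strand): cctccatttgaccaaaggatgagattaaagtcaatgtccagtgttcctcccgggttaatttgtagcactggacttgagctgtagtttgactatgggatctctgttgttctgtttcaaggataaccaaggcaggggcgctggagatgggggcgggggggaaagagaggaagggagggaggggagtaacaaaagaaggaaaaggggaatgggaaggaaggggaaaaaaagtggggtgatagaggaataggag
The Hoxa2 window held 1 Meis match and 1 Hox-Pbx match, and the windows of Hoxa10 and Hoxa9 held none.

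The HoxA genes best known from blood had overlapping groups. Hoxa9, which maintains stem cells and drives myeloid leukaemia together with Meis1, read 7.06, 7.24 and 7.42 on the knockout arrays, against 7.15, 7.44 and 7.33 on the wild-type arrays. The range inside each genotype, 0.36 over knockout and 0.29 over wild-type arrays, exceeded the difference of -0.065 (SE 0.13, 95% limits of -0.38 to 0.25). Hoxa7, a gene of early progenitors and of MLL-rearranged leukaemia, read 6.94, 6.95 and 7.22 on the knockout arrays, against 7.02, 7.01 and 7.05 on the wild-type arrays. Its 1 high array was knockout replicate 3, and the difference was 0.011 (SE 0.11, 95% limits of -0.25 to 0.27). Hoxa5, which restrains erythroid development in human progenitors, read 5.29, 5.14 and 5.60 on the knockout arrays, against 5.22, 5.51 and 5.39 on the wild-type arrays, with a difference of -0.031 (SE 0.15, 95% limits of -0.38 to 0.32). Hoxa4 and Hoxa6 lay within 0.13 and 0.12 over all 6 arrays and differed by -0.070 and -0.027. Hoxa3, needed for thymus and parathyroid glands, and Hoxa13, needed for limb tips and genital tubercle, differed by -0.076 and -0.040. The median of the 9 HoxA genes was -0.040, and its sign turned to 0.00617 with the sex-linked class as a block and to 0.035 without the mixed arrays. It was 0.000853 without wild-type replicate 2.

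HoxB lies on chromosome 11 with Tbx21, and 14 protein-coding genes stand between Hoxb1 and Tbx21 in RefSeq's gene order. All 10 HoxB genes were measured and all lay below the median of probe sets. Hoxb5, which marks long-term stem cells in the mouse, read 6.18, 6.05 and 6.28 on the knockout arrays, against 6.46, 6.36 and 6.45 on the wild-type arrays. The groups did not overlap, and the difference was -0.25 (SE 0.098, 95% limits of -0.49 to -0.021), with limma unadjusted p = 0.0367 and an adjusted p of 1. A second Hoxb5 probe set did not show this: it read 6.33, 6.13 and 6.29 on the knockout arrays, against 6.15, 6.28 and 6.18 on the wild-type arrays, a difference of 0.043 (SE 0.098). In a limma fit the mean of both gave -0.11 with an unadjusted p of 0.293. The first probe set gave -0.27 with the sex-linked class as a block (limma unadjusted p = 0.0811) and -0.13 without the mixed arrays.

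Other HoxB genes of blood progenitors had overlapping groups. Hoxb4, which expands stem cells when overexpressed, read 5.93, 5.95 and 6.11 on the knockout arrays, against 5.75, 6.43 and 6.04 on the wild-type arrays. Both the lowest and the highest array were wild-type, and the difference was -0.077 (SE 0.18, 95% limits of -0.505 to 0.35). Hoxb3, which acts beside Hoxb4 in stem cell growth, read 6.51, 6.18 and 6.24 on the knockout arrays, against 6.05, 6.27 and 6.40 on the wild-type arrays, which differed by 0.068 (SE 0.14, 95% limits of -0.26 to 0.39). Hoxb2 read 5.27, 4.96 and 5.46 on the knockout arrays, against 4.68, 5.497 and 5.32 on the wild-type arrays. Wild-type replicate 1 stood below the rest, and the interval of the difference, -0.499 to 0.63 around 0.066, was the widest among Hox genes.

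Hoxb6, a gene of erythroid and granulocytic precursors, read 5.64, 5.82 and 5.84 on the knockout arrays, against 6.02, 5.65 and 5.81 on the wild-type arrays, with a difference of -0.057 (SE 0.13, 95% limits of -0.36 to 0.24). Hoxb7 read 5.09, 5.17 and 4.90 on the knockout arrays, against 4.91, 4.90 and 5.54 on the wild-type arrays. The high value belonged to wild-type replicate 3 alone, and the difference was -0.062 (SE 0.19, 95% limits of -0.52 to 0.40). Hoxb8, which immortalises myeloid progenitors when forced on, read 5.500 ± 0.12 over knockout arrays and 5.67 ± 0.14 over wild-type arrays, which differed by -0.17 (SE 0.11, 95% limits of -0.44 to 0.10). Hoxb13, a gene of prostate and tail, read 5.52, 5.52 and 5.41 on the knockout arrays, against 5.56, 5.63 and 5.66 on the wild-type arrays. Its groups did not overlap, and limma's unadjusted p was 0.178. Hoxb1, which specifies a hindbrain segment, read 6.48, 6.13 and 6.26 on the knockout arrays, against 6.25, 6.40 and 6.28 on the wild-type arrays. Its highest and its lowest value were both from knockout arrays, and the difference was -0.020 (SE 0.12, 95% limits of -0.30 to 0.26). Hoxb9, a gene of rib patterning, differed by 0.00750. The median of the 10 HoxB genes was -0.059, and it was -0.16 without wild-type replicate 1.

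HoxC on chromosome 15 had 1 gene whose groups stood apart. Hoxc13, which is needed for hair and nails, read 5.82, 5.74 and 5.69 on the knockout arrays, against 5.98, 6.000 and 6.05 on the wild-type arrays. Every knockout array lay below every wild-type array, and the difference was -0.26 (SE 0.086, 95% limits of -0.46 to -0.052), with limma unadjusted p = 0.0214 and an adjusted p of 1. With the sex-linked class as a block Hoxc13 differed by -0.26 (limma unadjusted p = 0.0775), and without the mixed arrays by -0.33. Hoxc8, a gene of brachial motor neurons, read 5.58, 5.37 and 5.31 on the knockout arrays, against 5.63, 5.505 and 5.74 on the wild-type arrays. Only knockout replicate 1 reached into the wild-type range, and the difference was -0.21 (SE 0.12, 95% limits of -0.48 to 0.070).

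Hoxc6, reported in erythroid and lymphoid cells, read 5.92, 5.30 and 5.30 on the knockout arrays, against 5.62, 5.19 and 5.35 on the wild-type arrays. Knockout replicate 1 was the highest array and wild-type replicate 1 the next, and the difference was 0.12 (SE 0.21, 95% limits of -0.37 to 0.61). Hoxc4, a lymphoid and progenitor gene, read 5.89, 5.81 and 5.83 on the knockout arrays, against 5.91, 5.84 and 5.86 on the wild-type arrays. Its 6 arrays lay within 0.11 of each other, the smallest range among Hox genes, and the difference was -0.031 (SE 0.084, 95% limits of -0.23 to 0.17). Hoxc10, a gene of lumbar motor neurons, read 6.503, 6.34 and 6.34 on the knockout arrays, against 6.22, 6.39 and 6.35 on the wild-type arrays, which differed by 0.076 (SE 0.099, 95% limits of -0.16 to 0.31). Hoxc11, a hindlimb and kidney gene, read 4.98, 4.95 and 4.97 on the knockout arrays, against 4.51, 5.02 and 4.94 on the wild-type arrays. The knockout arrays lay within 0.027 of each other and wild-type replicate 1 alone lay low, so that the difference of 0.15 (SE 0.15, 95% limits of -0.21 to 0.497) was -0.013 without wild-type replicate 1. Hoxc5 read 4.81, 4.66 and 4.76 on the knockout arrays, against 4.64, 4.55 and 4.75 on the wild-type arrays, which differed by 0.094 (SE 0.097, 95% limits of -0.14 to 0.33). Hoxc9, a thoracic motor neuron gene, and Hoxc12 differed by -0.099 and -0.065. The median of the 9 HoxC genes was -0.031.

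HoxD on chromosome 2 had no gene at an unadjusted p under 0.05, and 7 of its 8 measured genes lay below 0. Hoxd8, a trunk gene, read 7.004, 6.77 and 6.82 on the knockout arrays, against 6.95, 7.08 and 7.39 on the wild-type arrays. The groups overlapped only through knockout replicate 1 and wild-type replicate 1, and the difference was -0.27 (SE 0.14, 95% limits of -0.61 to 0.060), with limma unadjusted p = 0.0935. Hoxd9, a hindlimb gene, read 5.15, 5.15 and 5.19 on the knockout arrays, against 5.01, 5.14 and 5.11 on the wild-type arrays. It was the 1 HoxD gene above 0, with groups that did not overlap and a difference of 0.078 (SE 0.087, 95% limits of -0.13 to 0.28). The 250 bases before its start held the T-box letters GGTGTGA, in capitals here. Of 22 Hox promoter windows searched, for 20 of the 36 genes, this was the 1 match (4.55%, against 3.33% of all promoters).
Hoxd9 (chr2:74697513-74697762, + strand): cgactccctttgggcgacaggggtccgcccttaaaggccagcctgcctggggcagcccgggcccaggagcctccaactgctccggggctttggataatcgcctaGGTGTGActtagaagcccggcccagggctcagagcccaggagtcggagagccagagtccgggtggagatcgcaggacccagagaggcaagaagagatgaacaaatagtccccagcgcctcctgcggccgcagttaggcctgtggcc

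Of the limb and digit genes of HoxD, Hoxd10, Hoxd11, Hoxd12 and Hoxd13 had differences of -0.10, -0.039, -0.026 and -0.032. Hoxd10 was lowest in knockout replicate 3, at 5.84, and Hoxd12 was lowest in wild-type replicate 3, at 6.04. Hoxd1, a gene of mouse pain-sensing neurons, and Hoxd3, a gene of the first vertebra, differed by -0.13 and -0.050. The median of the 8 HoxD genes was -0.044. Without knockout replicate 1 it was -0.086 and without knockout replicate 2 it was -0.075.

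The clusters were also compared by array, as the mean deviation of their genes from each gene's mean over the 6 arrays. For HoxD it was -0.013, -0.025 and -0.069 on the knockout arrays and 0.034, 0.027 and 0.046 on the wild-type arrays. The HoxD means did not overlap between genotypes, but of the 8 genes only Hoxd9 had groups apart, and it was higher in the knockout. Hoxd8 had the largest difference of the HoxD genes, -0.27, and the widest range, 0.61, so it weighs most in these means. The split rests on Hoxd8, whose own groups overlapped. With Hoxd8 left out, the mean of the other HoxD genes is higher in knockout replicate 2 than in wild-type replicate 3. How often other sets of genes split in this way was not tested. For HoxA it was -0.022, -0.080 and 0.039 on the knockout arrays and 0.00569, 0.054 and 0.00244 on the wild-type arrays, and for HoxB 0.00731, -0.10 and 0.00101 on the knockout arrays and -0.092, 0.058 and 0.13 on the wild-type arrays. These overlapped, with wild-type replicate 1 beside the knockout arrays in HoxB. For HoxC it was 0.095, -0.089 and -0.044 on the knockout arrays and 0.019, -0.030 and 0.049 on the wild-type arrays, where knockout replicate 1 was the highest array. Over all genes the deviations stayed between -0.011 and 0.011. No test was made between clusters, because the members were chosen with earlier results of these data known.

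**Figure D3:**
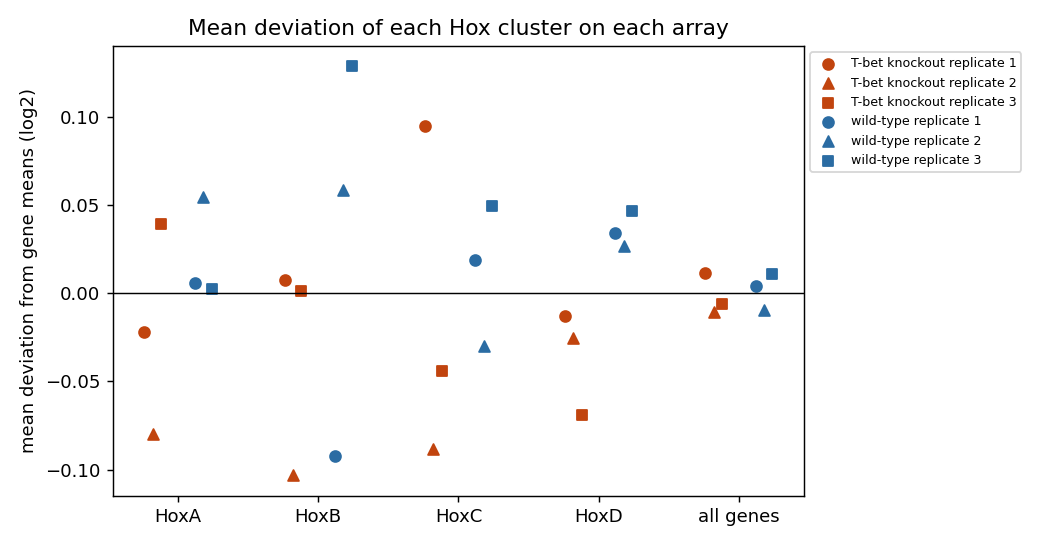
Mean deviation of the genes of each Hox cluster, and of all genes, from their own mean over the 6 arrays (log2), for each T-bet knockout array (left of each label) and wild-type array (right). The 3 knockout arrays lie below the 3 wild-type arrays in HoxD only while Hoxd8, whose own groups overlap, is counted. They mix with them in the other clusters.

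Read across clusters, paralog groups 8 and 13 were the groups of 3 or more genes with the most negative values. Hoxb8, Hoxc8 and Hoxd8 differed by -0.17, -0.21 and -0.27, and Hoxa13, Hoxb13, Hoxc13 and Hoxd13 by -0.040, -0.13, -0.26 and -0.032. Hoxa4, Hoxb4 and Hoxc4 were also all below 0, at -0.070, -0.077 and -0.031, as were both measured genes of groups 1 and 12. The signs of the other groups were mixed. In group 10, Hoxa10 and Hoxc10 were above 0 and Hoxd10 below, in group 5 Hoxc5 was above 0 and Hoxa5 and Hoxb5 below, and in group 2 Hoxb2 was above 0 and Hoxa2 below. The median was -0.060 for the 10 genes of groups 1 to 4, -0.057 for the 11 of groups 5 to 8 and -0.039 for the 15 of groups 9 to 13. For groups 5 to 8 it was -0.15 with the sex-linked class as a block and -0.15 without wild-type replicate 2. For groups 9 to 13 it was -0.00805 without the mixed arrays and -0.013 without wild-type replicate 1. These 4 settings are named because a median moved in them, so they do not rank the 3 regions. Groups 5 to 8 had the lowest median in each of them, while groups 1 to 4 had the lowest in the main fit and with quantile normalization.

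**Figure D4:**
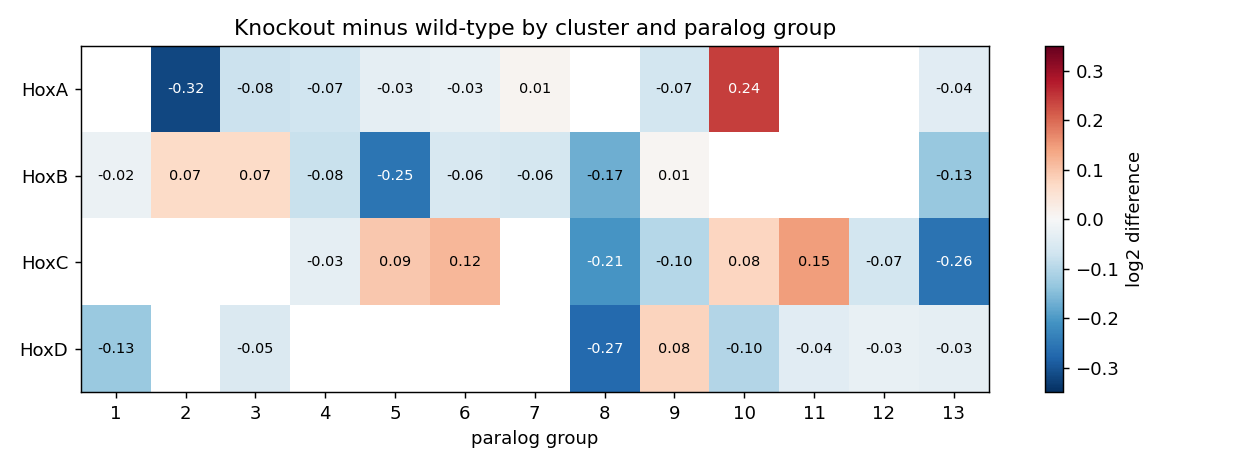
Difference in log2 signal, T-bet knockout minus wild-type, for each Hox gene by cluster (rows) and paralog group (columns). Blue cells are below 0 and red cells above; blank cells hold no value, and group 8 is negative in all 3 of its genes.

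Promoter windows were available for 20 of the 36 genes (22 windows). Their median GC content was 59.2%, against 52.4% over 32851 RefSeq promoters, and their median ratio of observed to expected CpG was 0.721, against 0.374. The letters were searched on both strands and could overlap. Hox-Pbx letters were found in 4 of 22 windows (18.2%, against 7.68% of all promoters), Meis letters in 2 (9.09%, against 15.9%) and T-box letters in 1, that of Hoxd9. The erythroid GATA letters AGATAA were found in 0, against 9.99% of all promoters. These matches are descriptions of the letters in these windows.

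The clusters also encode microRNAs and antisense transcripts, of which 8 of 20 listed genes were measured. None had an unadjusted p under 0.05, and their median difference was 0.026. Mir196a-1 in HoxB and Mir196a-2 in HoxC give the same mature miR-196a-5p in RefSeq, printed once here, which cleaves Hoxb8 mRNA in mouse embryos, and Mir10b and Mir615 lie in HoxD and HoxC. Mature RNAs are printed for the microRNA genes described here, with the seed (bases 2 to 8) in capitals, from RefSeq with build GRCm38.p6.
mmu-miR-196a-5p: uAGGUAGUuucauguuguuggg
mmu-miR-10b-5p: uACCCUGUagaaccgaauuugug
mmu-miR-615-3p: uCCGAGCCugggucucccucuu
The probe sets read RNA of the microRNA genes and not specifically the mature RNA. Mir196a-2 read 6.15, 5.28 and 5.28 on the knockout arrays, against 5.41, 5.504 and 5.15 on the wild-type arrays, with knockout replicate 1 the highest array, as it was for Hoxc6 in the same cluster. Mir196a-1 read 5.11 ± 0.21 over knockout arrays and 5.14 ± 0.085 over wild-type arrays, a difference of -0.023, beside -0.17 for Hoxb8. Mir10b and Mir615 differed by 0.30 (SE 0.29) and -0.18 (SE 0.15). Mir10b was very dim, with a mean of 2.81 and only 2.27% of probe sets below it. Hotair, a long non-coding RNA of HoxC, differed by -0.12, and Gm53, a HoxB transcript, by 0.14.

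Among 8 measured Hox cofactors none had an unadjusted p under 0.05, with 4 above 0, 4 below and a median of -0.045. Meis1, the partner of Hoxa9, read 8.42, 8.51 and 9.07 on the knockout arrays, against 8.70, 8.60 and 9.004 on the wild-type arrays. Knockout replicate 3 and wild-type replicate 3 were its highest arrays, and the difference was -0.10 (SE 0.20, 95% limits of -0.58 to 0.37). Pknox2 and Pbx2 had groups that did not overlap, both lower in the knockout (25% of the list, where 5.18% of all genes were lower without overlap), at -0.20 (SE 0.10) and -0.14 (SE 0.093), and Meis3 differed by -0.12.

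Activators of Hox transcription had a median of 0.013 over 21 genes, with 0 at an unadjusted p under 0.05. Kmt2a, the histone methyltransferase that maintains Hox expression, read 9.80 ± 0.084 over knockout arrays and 9.78 ± 0.15 over wild-type arrays, and its leukaemia fusion partner gene Mllt3 differed by 0.15 (SE 0.086). The Polycomb list of 23 genes had 1 member at an unadjusted p under 0.05 (4.35%, where all genes had 3.13%), and the median was 0.00563. It was Cbx2, a chromodomain subunit of the repressive complex, which read 8.36, 8.14 and 8.08 on the knockout arrays, against 8.51, 8.56 and 8.39 on the wild-type arrays, and differed by -0.30 (SE 0.11, 95% limits of -0.56 to -0.033). All of its knockout values lay below its wild-type values, while Ezh1 and Phc2 stood apart in the other direction, at 0.14 and 0.073. The groups thus did not overlap for 3 of the 23 genes, where 8.7% of all genes did not. Cbx8 differed by 0.11.

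Genes that Hoxa9 and Meis1 bind or drive in leukaemic progenitors had a median of -0.012 over 14 genes. Igf1 was the 1 of them at an unadjusted p under 0.05 (7.14% of the list, where all genes had 3.13%), at 0.26 (SE 0.10) with a limma adjusted p of 1. Sox4, Flt3 and Cd34 differed by -0.15, -0.15 and -0.19. Protein-coding genes that flank the clusters had a median of -0.024 over 21 genes with 0 at an unadjusted p under 0.05. The homeobox gene Evx1 beside HoxA differed by -0.13, Smug1 near HoxC by -0.18 and Nfe2l1 near HoxB by -0.098.

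Markers of cell types were read on the same arrays, and none of the stem and multipotent cell genes passed limma's adjusted p of 0.05. The mean signal of 12 stem and multipotent cell genes lay between 7.26 and 7.38 in knockout and between 7.39 and 7.55 in wild-type arrays. Of their 12 differences 11 were negative, where 51.8% of all genes were. Tek, the angiopoietin receptor gene of stem cells, led them at -0.46 (SE 0.11), and Robo4, Cd34 and Mecom differed by -0.20, -0.19 and -0.13. Kit, Gata2 and Hlf of the same list differed by -0.00037, -0.023 and 0.00725. The 7 megakaryocyte markers had a mean between 6.86 and 7.18 in knockout and between 7.09 and 7.37 in wild-type arrays. Of their differences 6 were negative (85.7%), with Pf4 at -0.48 (SE 0.21), Itga2b at -0.34 (SE 0.14) and Gp9 at -0.022, while Ppbp was at 0.017. The 11 erythroid markers had a mean between 11.17 and 11.30 in knockout and between 11.17 and 11.23 in wild-type arrays. Of their differences 1 was negative (9.09%), and their median was 0.037. Stroma and endothelium genes, of lineages that also use Hox genes, had a mean between 6.08 and 6.30 in knockout and between 6.06 and 6.24 in wild-type arrays. Knockout replicate 1, the highest HoxC array, was the highest for these 13 genes and also for the T and NK cell markers. Its median over all probe sets, 6.53, was the highest of the 6 arrays too. Granulocyte and monocyte markers lay between 5.89 and 6.21 in knockout and between 5.91 and 6.10 in wild-type arrays, and B cell markers between 6.82 and 7.45 in knockout and between 6.60 and 7.08 in wild-type arrays. T and NK cell markers lay between 6.13 and 6.22 in knockout and between 6.11 and 6.20 in wild-type arrays. The part of these markers in the Hox values was not tested.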

How the data were processed

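The authors deposited 1 log2 signal per probe set and array, and the submitters' processing notes name Affymetrix Expression Console 1.4.1.46. Not given in the sources used here were background correction, normalization, summarisation and detection calls. The log base was inferred: the highest value, 14.2, exceeds 11.1, the natural log of a 16-bit maximum. Values were used as deposited. Differences were fitted with limma 3.58.1 in R 4.3.3 over all 41345 probe sets, adjusted by Benjamini-Hochberg. Exact permutation tests were 2-sided. ± is the SD over 3 arrays.

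The array annotation gave 23521 probe sets 1 symbol, updated through RefSeq (GRCm38.p6). No coordinates of array features are printed, since the array file names no build. The Hox members, second lists and tests were chosen with earlier results of these data known. Per-array values are given for the 5 Hox genes of smallest p in each direction, 12 known from blood, 1 gene a cluster by highest mean signal (a rule for choosing, not a ranking of expression), and a few singled out after values were seen. The fit was tested on simulated data with changes larger than any Hox difference here. That test does not show whether changes of the size seen here would be found.

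Replicate numbers 1 to 3 recur in both groups. Deviations from group means correlated between same-numbered arrays at 0.285, 0.116 and 0.115 over 1 probe set per gene, so the numbers were treated as pairs in an alternative with a replicate block. Over all probe sets the correlation for number 2 was 0.0569, and over the 36 Hox genes they were 0.143, -0.146 and -0.148. Other alternatives were quantile normalization, median centring, limma-trend, array weights, a dim filter, named probe sets only, a block or exclusion by sex-linked signal, the mean of a gene's probe sets, and each array left out. In the sex-linked block wild-type replicate 2 is alone in its class and adds nothing to the difference.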

Additional observations from a re-analysis of the deposited data

How the results depend on the processing

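Under all 16 alternatives 0 Hox genes passed the adjusted threshold, and Hoxa2, Hoxa10, Hoxb5 and Hoxc13 kept their sign in each that measured them. The groups of these 4 genes did not overlap, so leaving out, weighting or blocking arrays could not have changed their sign. The replicate block gave 4 Hox genes at an unadjusted p under 0.05, 0 Hox genes and 0 probe sets past the adjusted threshold, and changed no call. Probe sets past the adjusted threshold numbered 1 with centred arrays, 1 with array weights and 0 to 2 with 1 array left out. Hox genes at an unadjusted p under 0.05 numbered 2 without the dim 30% (23 Hox genes left in the fit), 2 with limma-trend, 0 with the sex-linked block, 0 without the mixed arrays and 1 to 4 with 1 array left out. Hox genes without overlap numbered 2 without the dim 30%, 25 without the mixed arrays and 8 to 12 with 1 array left out, as fewer arrays overlap less. The HoxA median was 0.00617 with the sex-linked block and 0.035 without the mixed arrays. The median of paralog groups 5 to 8 was -0.15 with the sex-linked block, and that of groups 9 to 13 was -0.00805 without the mixed arrays. With 1 array left out the medians ranged as follows: all Hox genes -0.063 to -0.025, HoxA -0.075 to 0.000853, HoxB -0.16 to -0.050, HoxC -0.060 to -0.010, HoxD -0.086 to -0.048, paralog groups 1 to 4 -0.096 to -0.016, paralog groups 5 to 8 -0.15 to -0.036 and paralog groups 9 to 13 -0.059 to -0.013. Of 563 gene values under alternatives 57 changed sign, all of genes whose difference had not passed a threshold, and 15 of the 36 genes never did. Signs changed with quantile normalization for Hoxa7 (-0.017). With array weights they changed for Hoxa7 (-0.016), Hoxb2 (-0.082), Hoxb3 (-0.016), Hoxb9 (-0.024), Hoxd12 (0.014) and Hoxd13 (0.026). With the sex-linked block they changed for Hoxa5 (0.084), Hoxa6 (0.00617), Hoxa9 (0.039), Hoxb1 (0.023), Hoxb4 (0.14), Hoxb9 (-0.013), Hoxc6 (-0.033) and Hoxd12 (0.039), and without the mixed arrays for Hoxa5 (0.15), Hoxa9 (0.035), Hoxa13 (0.061), Hoxb3 (-0.091), Hoxb6 (0.11), Hoxb9 (-0.011), Hoxc9 (0.047), Hoxc10 (-0.023), Hoxc11 (-0.00805), Hoxc12 (0.035) and Hoxd12 (0.11). With 1 array left out the ranges that cross 0 were Hoxa13 -0.093 to 0.015, Hoxa5 -0.16 to 0.071, Hoxa6 -0.052 to 0.00714, Hoxa7 -0.083 to 0.059, Hoxa9 -0.15 to 0.024, Hoxb1 -0.12 to 0.063, Hoxb2 -0.18 to 0.23, Hoxb3 -0.031 to 0.15, Hoxb4 -0.24 to 0.10, Hoxb6 -0.15 to 0.040, Hoxb7 -0.17 to 0.15, Hoxb9 -0.025 to 0.050, Hoxc11 -0.013 to 0.24, Hoxc6 -0.093 to 0.23, Hoxd10 -0.23 to 0.034, Hoxd11 -0.090 to 0.023, Hoxd12 -0.18 to 0.062 and Hoxd13 -0.11 to 0.00910. The causes of these changes were not tested. The number of arrays and the unknown background of each probe set limit what can be detected.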
